A study of Mus musculus with 2 samples.

Results

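The glutamate system genes of this screen comprised 34 listed members. They were the subunits of the AMPA, kainate, NMDA and delta receptors, the metabotropic glutamate receptors, the glutamate transporters of the plasma membrane and of synaptic vesicles, and the sodium-calcium exchangers. They were taken by name, as every probe set with 1 gene symbol among the listed members, so no measured value entered the rule. The members themselves were chosen with earlier results of these data known. Of the 34, 31 were measured, by 67 probe sets (groups of short probes for 1 transcript), among 18193 genes and 45037 probe sets in all. Grin1, Grm6 and Slc17a8 had no probe set with that symbol alone and were not analysed here. ANSO4E, a mouse neural stem cell line, was transduced with a genome-wide lentiviral siRNA library in both groups. The reference control received the library without MNNG, an alkylating agent that methylates DNA. The MNNG survivors were cells that lived through 500 µM MNNG for 15 min, grew out and were treated again. The line was derived from a transgenic mouse whose transgene is not named in the sources used here, with C57BL/6JxSJL/JF1 oocytes and BDF1 sperm as its background, and it is 1 line. Inserts recovered from each group were read on 1 Affymetrix mouse genome array, so a signal stood for inserts against a gene and not for its expression. With 1 array per group there was no replicate error, no test between the groups and no p-value.

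Glutamate is the main excitatory transmitter of the brain. AMPA, kainate and NMDA receptors are tetrameric cation channels that glutamate opens, and metabotropic receptors act through G proteins. Transporters of the Slc1 family clear glutamate from the extracellular space, vesicular transporters load it into synaptic vesicles, and sodium-calcium exchangers move calcium across the membrane against sodium. Excess glutamate kills neurons through calcium entry, chiefly by NMDA receptors, a process called excitotoxicity, and AMPA receptors that lack an edited Gria2 subunit also pass calcium. In a survival screen of this kind, a gain of inserts against a gene in the surviving cells is the readout of interest, because cells whose death required that gene would be the ones to survive.

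Members lay at the low signals where most of the array lay. The 67 probe sets had log2 signals between -0.10 and 1.88 in the reference control, with a median of 0.67, and between 0.03 and 3.68 in the survivors, with a median of 0.73. Over all 45037 probe sets the medians were 0.69 and 0.74. Above a log2 signal of 3 lay 0 of the 67 in the reference control, against 781 probe sets (1.73%) of the whole array, and 1 of the 67 in the survivors, against 304 (0.675%). None exceeded 5 on either array. The highest member signal, that of Gria2 in the survivors, was 12.8 on the linear scale. Signals of different probe sets depend on their probes, so they are set side by side here only between the arrays. The arrays read inserts, so markers could not check the labeled cell type. Neural stem cell markers (10 of 10 measured) had control signals between 0.43 and 2.01, and hepatocyte markers (3 of 3) between 0.67 and 3.05. Neuron markers (5 of 5) lay between 0.62 and 2.73, and microglia and blood markers (4 of 4) between -0.01 and 1.04. Oligodendrocyte markers (3 of 4) lay between 0.61 and 7.34. As deposited, Mbp had 7.34 without MNNG and 0.74 in the survivors, Olig2 had 3.51 and 1.19, and Mog had 0.61 and 1.03. The differences at the 8 probe sets of Mbp ran from -6.60 to 0.48.

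**Figure D1:**
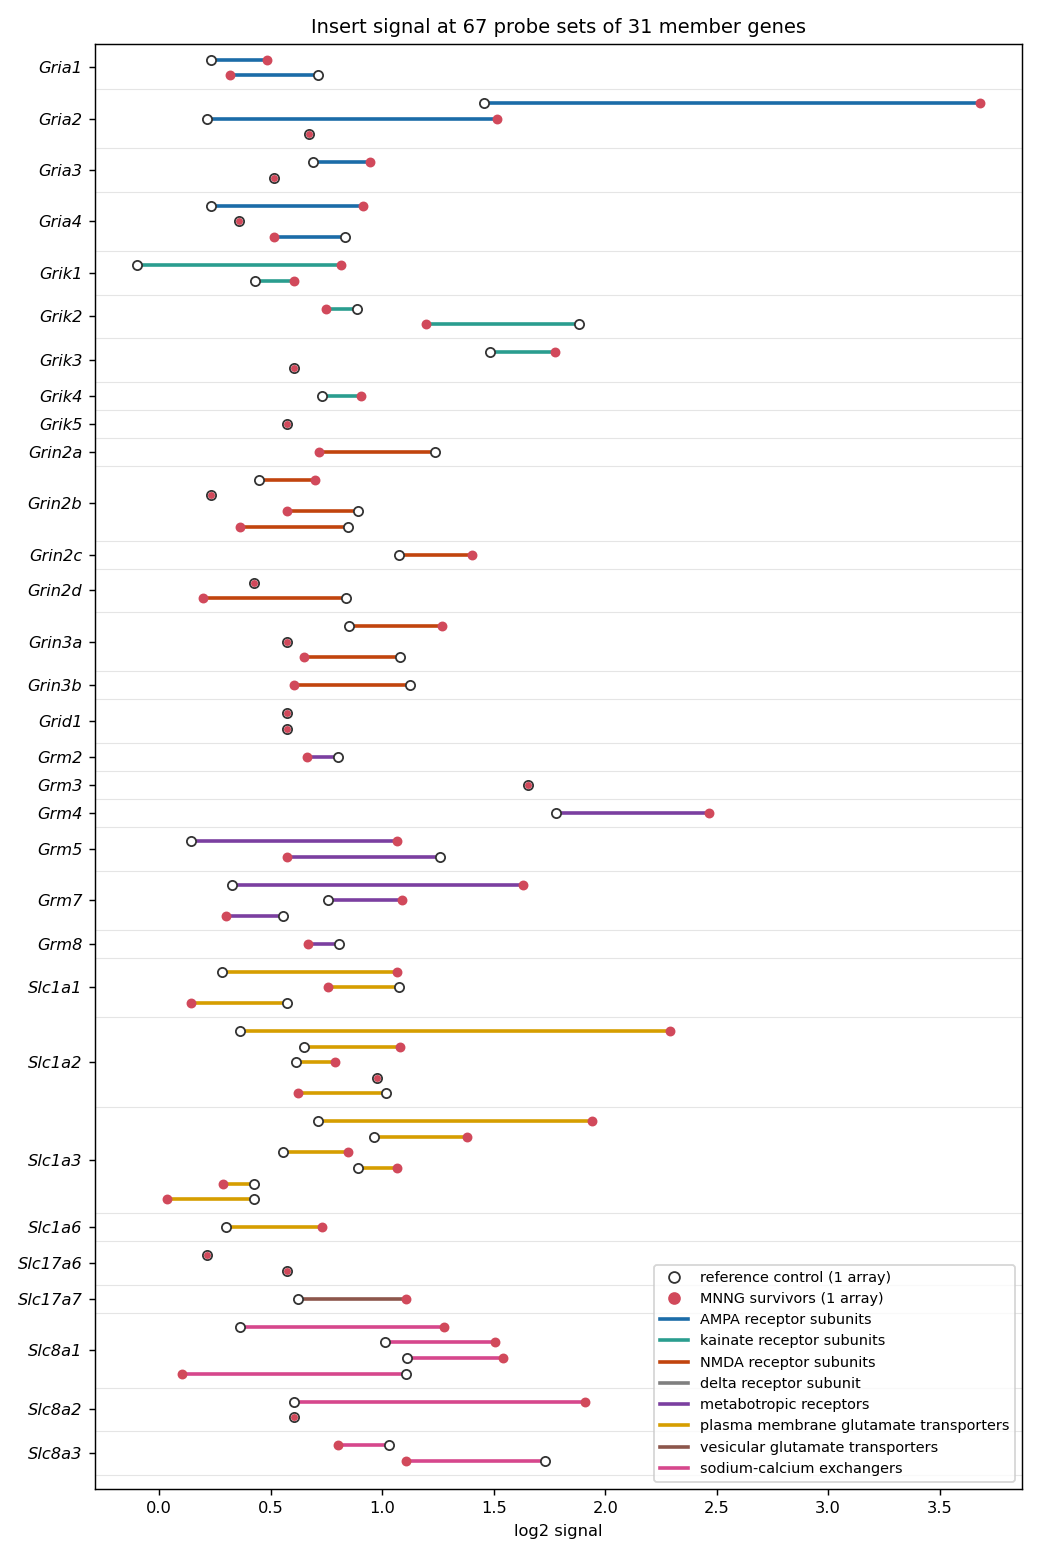
Log2 signal (horizontal axis) at each of the 67 probe sets of the 31 measured members, with open circles for the reference control array, red circles for the MNNG survivor array and a line, colored by role, joining the pair. Gria2 at 1 probe set reached 3.68 in the survivors, and 15 probe sets were equal between the arrays; centering on the hybridization controls would move each red circle to the left by 2.77.

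The deposited values were coarse, which set how finely a member could be read. Over the 45037 probe sets, the log2 difference (survivors minus reference control) took 890 distinct values, where values within 1e-05 of each other were counted as 1. Of these, 51 values were each held by 100 or more probe sets, and they covered 91.5% of the array. For the members the share was 62 of 67 probe sets (92.5%), and the 67 differences took 32 values. Exactly 0 was the commonest, at 15 of the 67 (22.4%) and at 8737 of all probe sets (19.4%). Different members therefore had the same difference to the last digit. Gria2 at 1 of its probe sets and Grm7 both had 1.30, a value held by 176 probe sets of the array, and Grin2a and Grin3b both had -0.52, held by 288. The 5 member probe sets outside the common values were at Gria2 (2.23, held by no other probe set of the array), Slc1a2 (1.93, held by 27), Slc8a2 (1.31, held by 46), Slc1a3 (1.23, held by 18) and Grin2d (-0.64, held by 80). Of all probe sets, 603 (1.34%) had a difference that no other had. Why values recur was not tested.

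**Figure D2:**
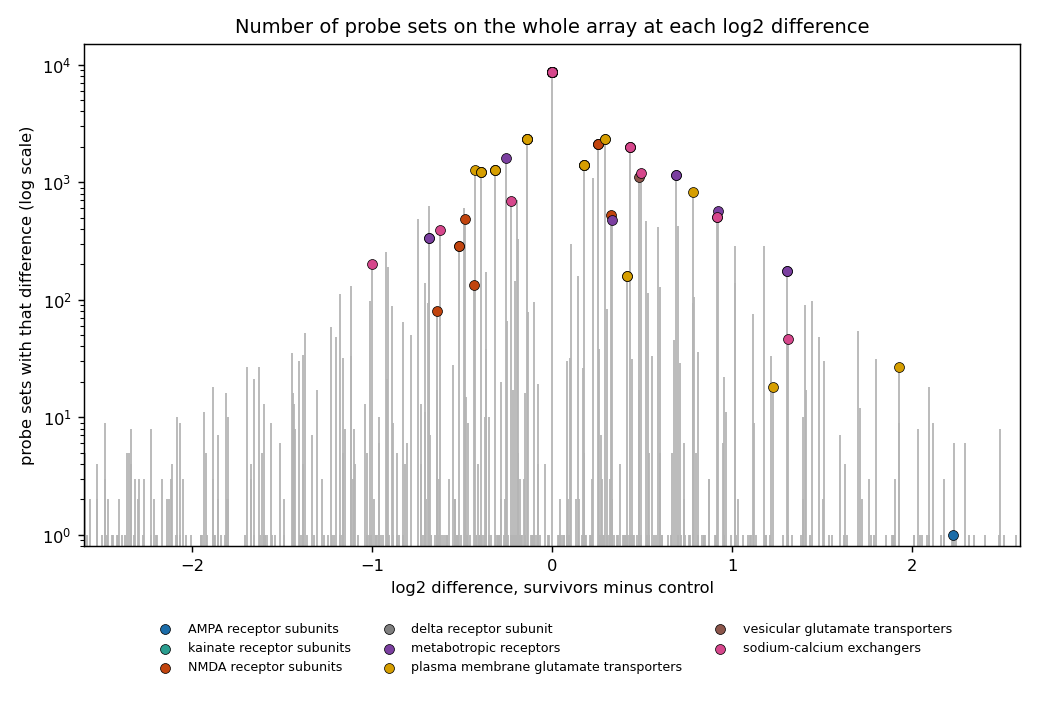
Number of probe sets of the whole array (vertical axis, log scale) at each log2 difference between survivors and reference control (horizontal axis, from -2.6 to 2.6), with grey lines for all values and colored circles for the values of the 67 member probe sets. Most members sit on values held by at least 100 probe sets, and Gria2 at 2.23 is alone on its value.

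Taken at the probe set of highest mean signal, 15 of the 31 members had a higher signal in the survivors, 12 a lower one and 4 an equal one, with a median log2 difference of 0.00. Over all 18193 genes 43.5% were higher, 38.1% lower and 18.4% equal, and the median was also 0.00. Higher by more than 1 on the log2 scale were 5 of 31 members (16.1%), against 4.78% of all genes. They were Gria2, Slc1a2, Slc8a2, Grm7 and Slc1a3. Apart from Gria2, these had low signals on the linear scale, from 1.25 to 1.64 in the reference control and from 3.09 to 4.89 in the survivors. Lower by more than 1 were 0 of 31, against 5.45% of all genes. All 5 belonged to the 20 members with several probe sets, among which they were 25%, against 6.04% of all genes with several probe sets higher by more than 1 and 8.52% lower by as much. Several probe sets were found for 64.5% of members and 49.5% of all genes. Counted by probe set, 6 of 67 (8.96%) were higher by more than 1, against 3.75% of all probe sets, and 1 of 67 (1.49%) was lower by more than 1, against 3.93%. Of the probe sets that were lower by more than 1 on the whole array, 996 (56.2%) had a control signal above 2, a level that none of the 67 member probe sets reached. The choice of probe set decided most of these calls. At the probe set of highest control signal 1 of 31 members was higher by more than 1, against 2.96% of all genes, and the median of all probe sets of a gene left 1 of 31, against 2.13%, which was Gria2 each time. (Slc8a2 had equal control signals at both of its probe sets and was taken at the one with no difference.) At the probe set of lowest mean it was 0 of 31, against 2.62% of all genes. At that of highest survivor signal it was 5 of 31, against 6.22%. These directions hold on the scale as deposited. The 18 hybridization controls, spiked in before hybridization, were all higher on the survivor array by a median of 2.77. Centering the arrays on them lowered each difference by that amount. This left 0 members higher by more than 1, against 0.0989% of all genes, and put the median of all genes at -2.77 as well.

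**Figure D3:**
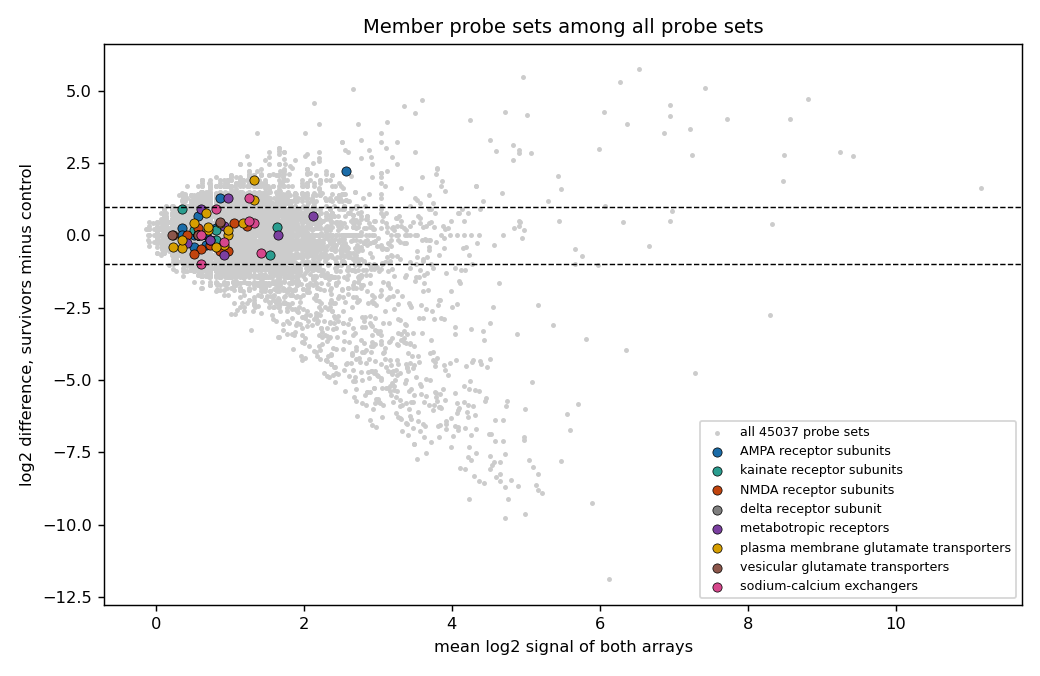
Log2 difference between survivors and reference control (vertical axis) by average log2 signal over the pair of arrays (horizontal axis), with grey points for all 45037 probe sets, colored circles for the 67 member probe sets by role and dashed lines at 1 and -1. The members lie at the low end of the signal, 6 above the upper line and 1 at the lower line on the scale as deposited, and all would move down by 2.77 with centering on the hybridization controls.

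Among the AMPA receptor subunits, Gria2 had the largest difference of all members. Gria2 encodes the subunit whose edited form keeps AMPA receptors nearly impermeable to calcium. At its probe set for a RefSeq mRNA the log2 signal was 1.45 without MNNG and 3.68 in the survivors, differing by 2.23. Quantile normalization of the pair of arrays made this difference 3.53, and loess made it 2.72. Its other probe sets had 0.21 and 1.52, a difference of 1.30, and 0.67 on both arrays. Gria2 was the only member with more than 1 probe set higher by over 1. On the whole array, 912 genes with several probe sets had at least 1 that was higher by over 1, and for 53 of them 2 or more were. Its median over 3 probe sets was 1.30. The remaining AMPA subunits differed by less than 1 at every probe set on the deposited scale. Gria1, the subunit best known from synaptic potentiation, had 0.71 and 0.32 at 1 probe set and 0.23 and 0.48 at the other. Gria3 had 0.69 and 0.95, beside 0.52 on both arrays. Gria4 had 0.83 and 0.51 at its probe set of highest mean, and its 3 differences ran from -0.32 to 0.68. Of 10 AMPA probe sets, 5 were higher, 2 lower and 3 equal, but the scale as deposited decided this, since centering on the hybridization controls turned all of them lower.

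On the deposited scale the kainate receptor subunits stayed within 1 of the reference control. Grik1 to Grik3 form channels by themselves, whereas Grik4 and Grik5 need one of these as a partner. Grik2 had 1.88 without MNNG and 1.20 in the survivors, a difference of -0.69, and 0.89 and 0.75 at its other probe set. Grik1 had -0.10 and 0.81 at 1 probe set, a difference of 0.91 that was the highest among kainate subunits, and 0.43 and 0.60 at the other. Both of its probe sets were thus higher and both of those of Grik2 lower on the deposited scale. Grik3 had 1.49 and 1.78, with 0.60 on both arrays at its other probe set. Grik4 had 0.73 and 0.91, and Grik5 had 0.57 on both arrays. None of the 5 passed a difference of 1 in either direction as deposited. Centering on the hybridization controls put them between -3.45 (Grik2) and -2.48 (Grik3).

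Of the 6 measured NMDA receptor subunits, 4 were lower and 2 higher in the survivors as deposited (0 higher with centering on the hybridization controls), and none differed by more than 1. Their median was -0.42, against 0.00 over all genes. It was -0.24 with the median over probe sets, -0.48 with the probe set of highest control signal and 0.00 with that of lowest mean. With the probe set of highest survivor signal it was 0.13, below the median of 0.18 over all genes under that choice. NMDA receptors pair the obligatory subunit Grin1, not analysed here, with Grin2 subunits that bind glutamate or Grin3 subunits that bind glycine. Grin2a had 1.24 without MNNG and 0.72 in the survivors, a difference of -0.52. Grin2b, the Grin2 subunit that prevails early in development, had 0.89 and 0.57, with differences from -0.48 to 0.25 over 4 probe sets. Grin2c, which is prominent in the cerebellum, had 1.07 and 1.40, a difference of 0.33. Grin2a and Grin2c each rested on 1 probe set, whereas those of Grin2b did not share a direction. Grin2d had 0.84 and 0.19, which differed by -0.64, and was equal at its other probe set. Grin3a had 0.85 and 1.27 at its probe set of highest mean, 1.08 and 0.65 at another and 0.57 on both arrays at the third. Grin3b, at 1 probe set, had 1.12 and 0.60. No NMDA subunit with several probe sets was higher at all of them, and none was lower at all of them. Grid1, a delta receptor subunit that bridges synapses rather than acting as a classical glutamate-gated channel, was equal between the arrays at each of its 2 probe sets, at 0.57.

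Among the metabotropic receptors, Grm7 was the only gene higher by more than 1 on the deposited scale, and Grm4 joined it with quantile normalization. Grm7 is a presynaptic receptor of group III that lowers transmitter release at high glutamate. At its probe set of highest mean it had 0.33 without MNNG and 1.63 in the survivors, differing by 1.30. Its other probe sets had 0.76 and 1.09, a difference of 0.33, and 0.55 and 0.30, a difference of -0.25. Grm7 is 1 of 2 members that the study selected on these samples, which leaves its direction without independent support. The probe set of the sequence the study lists for it was the one at 0.33, a value held by 478 probe sets of the array. The study lists for Grm7 a far larger survivor signal and ratio than any of its probe sets had here, so the deposited values did not reproduce that listing. Why they differ was not tested. Grm4, of the same group, had 1.78 and 2.47, a difference of 0.68 at its single probe set that became 1.25 with quantile normalization. Grm8, also of group III, had 0.81 and 0.67. The 3 measured receptors of group III thus had differences from -0.14 to 1.30 at their probe sets of highest mean. In group II, whose receptors lower cyclic AMP, Grm2 had 0.80 and 0.66, and Grm3 had 1.66 on both arrays. Grm5, a group I receptor coupled to phospholipase C, had 1.26 and 0.57 at 1 probe set and 0.14 and 1.07 at the other, differences of -0.69 and 0.92. The latter pair gave opposite directions of similar size for the same gene.

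The glutamate transporters of the plasma membrane had a median difference of 0.83 at 4 genes on the deposited scale (-1.94 with centering on the hybridization controls). It was 0.42 without probe sets marked _x_at or _s_at, 0.20 with the median over probe sets, 0.05 with the probe set of highest control signal and -0.11 with that of lowest mean. Slc1a2, the main glutamate transporter of astrocytes, had 0.36 without MNNG and 2.29 in the survivors at 1 probe set, a difference of 1.93. At its other probe sets Slc1a2 had 0.65 and 1.08, 0.61 and 0.79, 0.98 on both arrays, and 1.02 and 0.62. The differences there were 0.43, 0.18, 0.00 and -0.39, so the larger value was not shared. A further probe set, which carried Gm13872 beside Slc1a2 and was not counted as a member, had 0.46 and 1.41, a difference of 0.95. Slc1a3, the transporter of radial glia and astrocytes, had 0.71 and 1.94, a difference of 1.23, at a probe set whose name ends in _x_at, a mark for probes that may match other transcripts. At its remaining 5 probe sets Slc1a3 had 0.96 and 1.38, 0.55 and 0.85, 0.89 and 1.07, 0.43 and 0.29, and 0.43 and 0.03. These differences ran from -0.39 to 0.42, and without probe sets of this kind Slc1a3 stood at 0.42. Slc1a1, a neuronal transporter that also carries cysteine, had 1.07 and 0.76, with differences from -0.43 to 0.78 over 3 probe sets. Slc1a6, the transporter of Purkinje cells, had 0.30 and 0.73. Of 15 probe sets for these transporters 9 were higher, 5 lower and 1 equal as deposited, with a median of 0.18, and all 15 were lower after centering on the hybridization controls.

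Of the vesicular glutamate transporters, Slc17a7, which prevails in the cortex, had 0.62 without MNNG and 1.11 in the survivors, differing by 0.48. Slc17a6, which prevails in subcortical neurons, was equal between the arrays at each of its 2 probe sets, at 0.57 and 0.21.

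On the deposited scale, to which the directions below refer, the sodium-calcium exchangers did not share a direction. Centering on the hybridization controls put all 3 lower at their probe sets of highest mean, with a median of -2.34. Slc8a1, the exchanger of heart that is also found in brain, was the other member selected by the study on these samples. None of the 4 Slc8a1 probe sets here was designed on the sequence listed for it, and whether another probe set of the array was is not given here. The signals and ratio listed for Slc8a1 were far above those of every Slc8a1 probe set here, and why was not tested. At its probe set of highest mean Slc8a1 had 1.11 without MNNG and 1.54 in the survivors, differing by 0.43. Its other probe sets had 1.01 and 1.504, 0.36 and 1.28, and 1.10 and 0.10. Of its 4 probe sets 3 were therefore higher, by 0.43 to 0.91, and the last was lower by more than 1 at -1.002, the only member probe set to be so. Slc8a2, a brain exchanger, had 0.60 and 1.91, a difference of 1.31, and 0.60 on both arrays at its other probe set. Slc8a3, found in brain and skeletal muscle, had 1.73 and 1.11, a difference of -0.62, and 1.03 and 0.80 at its other probe set. Slc8a3 was lower at both of its probe sets, and Slc8a2 higher at 1 of 2.

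Probe sets of the same member often disagreed on the deposited scale. Centering on the hybridization controls lowered each difference by 2.77, more than the highest member difference of 2.23, and so turned all of them lower. As deposited, 10 of the 20 members with several probe sets (50%) had differences of both signs, against 47.7% of all genes with several probe sets. A further 5 had only higher or equal values (Gria2, Gria3, Grik1, Grik3 and Slc8a2), 3 had only lower or equal values (Grik2, Grin2d and Slc8a3), and 2 (Grid1 and Slc17a6) were equal throughout. The 2 arrays had a Spearman correlation of 0.28 over the 67 probe sets and of 0.33 over all probe sets, given as a description of points read on the same arrays.

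Genes that work with these receptors had list medians between -0.20 and 0.18 on the deposited scale, which centering on the hybridization controls lowered by 2.77. Of 15 auxiliary and trafficking proteins of AMPA and kainate receptors, 1 was higher by more than 1 and 0 lower, with a median of -0.13. This was Cacng2 (stargazin), which carries AMPA receptors to the synapse, with 0.61 without MNNG and 1.92 in the survivors at 1 of 3 probe sets whose differences began at -0.32. Of 17 measured scaffolds and kinases of the postsynaptic density, 0 differed by more than 1, with a median of 0.18, and Shank1 had the largest difference, 0.68. Of 13 measured genes of glutamate metabolism and neutral transport, 0 were higher by more than 1 and 3 lower, with a median of -0.19. Got2, the mitochondrial aspartate aminotransferase, had 3.55 and 1.23. Srr, which makes the NMDA receptor coagonist D-serine, had 2.20 and 0.31. Glud1, glutamate dehydrogenase, had 1.85 and 0.68. Each of these 3 also had a probe set with a higher value in the survivors, by up to 0.43, 0.49 and 1.70. Of 12 measured calcium pumps and other exchangers, 1 was higher by more than 1 and 0 lower, which was Atp2a2, the pump of the endoplasmic reticulum, with 0.57 and 2.37 at 1 of 6 probe sets that began at -0.62. Of 10 effectors of NMDA receptor toxicity, 0 differed by more than 1. Capn2, a calcium-activated protease, which the study also selected on these samples, had 0.87 and 1.79. The study lists far larger signals and a larger ratio for Capn2 than these. It also reports less death after oxygen-glucose deprivation in cortical neurons with Capn2 knocked down, which these arrays do not measure. The death-associated kinase Dapk1 had 0.43 and 1.21. Together, 2 of 67 genes on these 5 lists were higher by more than 1 (2.99%) and 3 lower (4.48%), against 4.78% and 5.45% of all genes.

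Receptor and channel families outside the glutamate system are given on the deposited scale, on which 4.78% of all genes were higher by more than 1 and 5.45% lower. Of 27 measured genes of GABA and glycine receptors and transporters, 0 were higher by more than 1 and 1 was lower, with a median of 0.00. This was Slc6a13, a GABA transporter, with 1.77 without MNNG and 0.14 in the survivors. Of 16 voltage-gated calcium channel subunits, 1 was higher by more than 1 (Cacna2d3, 0.42 and 2.32) and 1 lower (Cacna1h, 2.40 and 1.29), with a median of -0.09. Of 15 nicotinic acetylcholine receptor subunits, 1 was higher by more than 1 (Chrna5, 0.56 and 1.57) and 0 lower, with a median of 0.18. Chrna5 was higher by 1.01 at 1 of its 2 probe sets and equal at the other. Whether the members differ from these families could not be tested with 1 array per group.

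**Figure D4:**
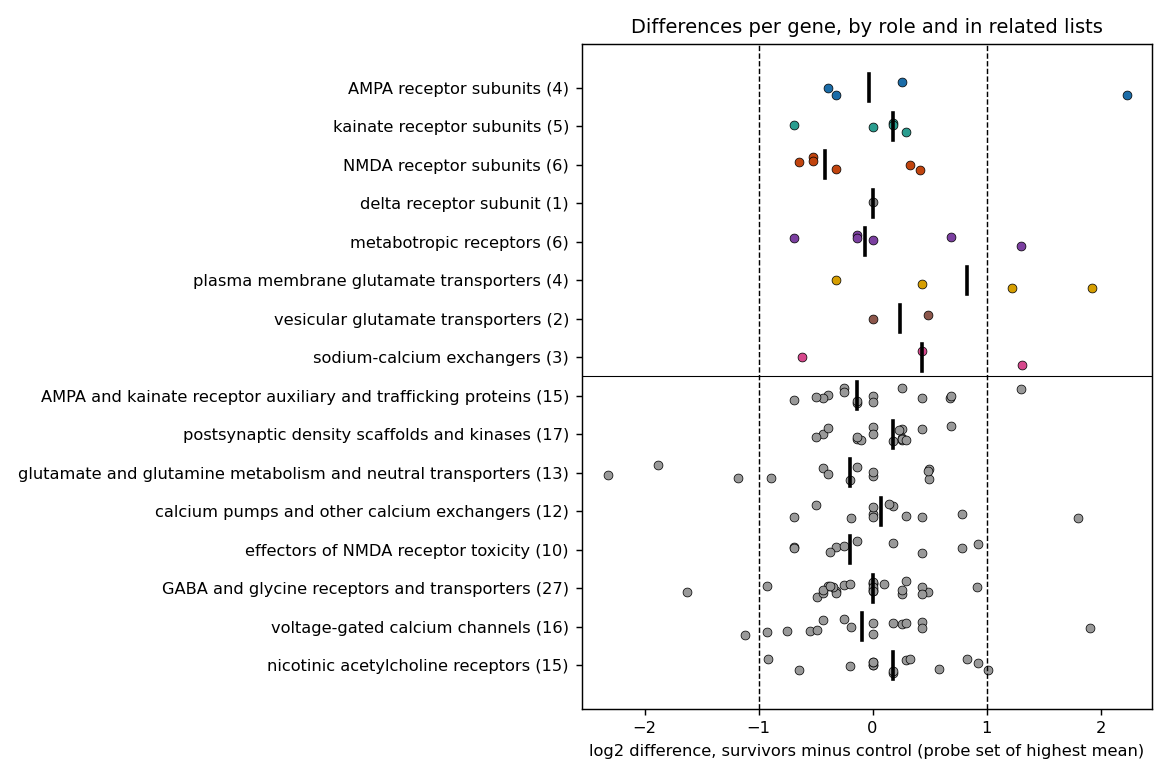
Log2 difference between survivors and reference control (horizontal axis), with 1 point per gene at its probe set of highest mean, a black bar at each list's median and dashed lines at -1 and 1. The upper lists, in color, are the 31 members by role and the lower ones, in grey, are related lists, with the number of measured genes in brackets; 5 members lie beyond 1 and 0 beyond -1 on the scale as deposited, and centering on the hybridization controls would move every point to the left by 2.77.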

How the data were processed

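The deposited values are log2 signals, 1 for every probe set of each array, with 1 array per group. The submitters' processing notes name RMA (background correction, quantile normalization and a summary per probe set), with no version given in the sources used here. The deposited values of the 2 arrays do not share 1 distribution (99th percentiles 4.11 and 2.68), as quantile normalization over both would give, so what scaling they had is unknown. Inserts were amplified by PCR, from genomic DNA per the labels and from RNA per the study's methods. Signals of single probes were not used. Differences were computed from these values for 45037 probe sets, leaving out the 64 Affymetrix controls. Genes were named from GEO's array annotation (34945 probe sets with 1 symbol, 932 with several, 9160 with none), updated through the gene ID to GRCm38.p6 names for 34741, including all 67 of the members. The probe set with the highest mean signal stood for a gene. A log2 difference of 1 was the threshold of size.

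The members, lists and thresholds were chosen with earlier results of these data known. All members are named. Values are given at every probe set for members with a difference over 1 in either direction or a signal over 3 and for Grm7 and Slc8a1, and for up to 3 genes of each other list. The alternatives were 4 scalings, a floor, the exclusion of ambiguous probe sets, 4 choices of probe set and thresholds of 0.5 and 2. Steps were tested on simulated data. No siRNA sequences were used here. Python 3.11.15, numpy 2.4.6, pandas 2.3.3, statsmodels 0.14.6 and matplotlib 3.10.9 were used.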

Additional observations from a re-analysis of the deposited data

How the results depend on the processing

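The number of arrays limits precision, and no replicate could be left out. No paired analysis was possible because each group holds 1 array. A gene's difference was counted as moved beyond 0.45, the scaled median absolute deviation of all differences, and a median beyond 0.1. Median centering, quantile normalization, loess, the floor and the exclusion of ambiguous probe sets left 4 to 6 members higher by more than 1 and 0 lower, against 3.75% to 5.84% and 4.37% to 5.50% of all genes, and the median of the members between -0.05 and 0.07. The count of 6 was with quantile normalization, which added Grm4 (1.25) and put Gria2 at 3.53, and loess put Gria2 at 2.72. Centering on the hybridization controls gave a median of -2.77 for the members and for all genes. It left 0 members higher and 29 lower, against 0.0989% and 99.3% of all genes, so nearly every gene counted as lower. Gria2 was then at -0.54, Slc1a2 at -0.84, Slc8a2 at -1.46, Grm7 at -1.46 and Slc1a3 at -1.54. The probe set of highest survivor signal gave a median of 0.29 for the members and 0.18 for all genes. The probe set of highest control signal left 1 member higher, against 2.96% of all genes, with Slc1a2 at -0.39. The probe set of lowest mean left 0 higher and 1 lower (Slc8a1), against 2.62% and 1.86% of all genes, with Grm7 at -0.25 and Slc1a3 at -0.39. The median over probe sets left 1 higher, against 2.13% of all genes. A threshold of 0.5 gave 6 higher and 6 lower (19.4% each), against 16.0% and 13.5% of all genes, and one of 2 gave 1 higher and 0 lower, against 0.495% and 2.09%. Over all members and alternatives, 246 gene values were within the limit, 56 moved and 8 of the called ones changed sign. The cause of these shifts was not tested.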

Other observations

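Probe sets of the members were split by the kind of sequence they were designed on. Of 16 designed on a RefSeq mRNA, 6 were higher in the survivors, 6 lower and 4 equal, and 1 (Gria2) differed by more than 1. Of 45 designed on other listed sequences, 21 were higher, 15 lower and 9 equal, and 5 differed by more than 1 in either direction. Of 6 with no listed sequence, 3 were higher, 1 lower and 2 equal, and 1 (Slc1a3) differed by more than 1. Over the whole array 8.05%, 7.51% and 7.88% of these kinds differed by more than 1 in either direction. A probe set that carried Gm28111 beside Grm2 had 0.81 without MNNG and 1.06 in the survivors, opposite in sign to the probe set of Grm2 alone (0.80 and 0.66).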
